A study of Homo sapiens with 6 samples.

Results

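Long noncoding and antisense RNAs were sought by name in a table of RNA-seq counts from HaCat cells (HaCaT), a human skin keratinocyte line that became immortal without an introduced gene. A row qualified when its name began with LINC or SNHG and a number, had the form of a MIR host gene (MIR...HG), ended in -AS and a digit or in -DT, or was 1 of 9 well-known RNAs such as MALAT1 and TUG1, and when its mean over the libraries reached 1 CPM (counts scaled to a common library total). By name 4269 of the table's 46287 rows matched, 4 of these held a count in any library, and 3 reached the level: TUG1, LINC00672 and LINC02210-CRHR1. The other row with counts, LINC00634, fell outside with a mean of 0.218 CPM, whereas the lowest member, LINC00672, had 1.63 CPM. The study compared 2 groups of 3 libraries: wild-type controls, and cells whose label is homozygous SDR42E1 knockout, edited with CRISPR/Cas9. Both groups were grown alike and harvested as subconfluent monolayers. The labels call the replicates biological without saying whether they were separate cultures or edited clones, so p-values measure only the spread between these libraries.

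A long noncoding RNA is a transcript with no long reading frame, and such RNAs are made in several ways. Divergent transcripts (-DT) start next to a coding gene and run away from it, antisense RNAs (-AS) run across it on the opposite strand, SNHG and MIR host genes carry small nucleolar RNAs or microRNAs in their introns or exons, and LINC genes lie between coding genes. TUG1, named for its induction by taurine, is a conserved and widely expressed RNA that has been linked to Polycomb repression and also contains a reading frame that can be translated. LINC00672 lies just downstream of LASP1, which encodes an actin-binding protein, and has been described as an RNA acting on that neighbour. LINC02210-CRHR1 is a readthrough locus, whose transcript joins exons of LINC02210 to exons of CRHR1, the receptor for corticotropin-releasing hormone.

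Nearly every name of this kind was listed at 0 in all 6 libraries. Of 2137 LINC rows 3 held a count. The 28 SNHG rows, 77 MIR host gene rows, 1592 -AS rows and 427 -DT rows held none. Of the 9 RNAs named singly TUG1 alone had counts, and MALAT1 and NEAT1, which are abundant nuclear RNAs of most cell types, were listed at 0 together with GAS5, DANCR and H19. The zeros were not read as levels, and no limit of detection was derived from them. Whole classes were at 0 across the table: 1852 rows typed as microRNA in GENCODE release 29, 1828 as small nuclear RNA, 1766 as antisense and 430 as small nucleolar RNA had no count. Other noncoding types were not wholly at 0: 5 of 2679 rows typed as lincRNA and 2 of 241 typed as processed transcript held a count. Which annotation was counted is not known here.

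The 4 rows with counts shared an annotation that the names do not show. Of the 4269 rows, 4112 matched a RefSeq gene by symbol or synonym, 9 of them a gene that RefSeq (GRCh38.p14) calls protein-coding. All 4 rows with counts were among these 9: TUG1, LINC02210-CRHR1, LINC00672 under its newer symbol LASP1NB, and LINC00634 under SMIM45. The other 5 were at 0, and so were the 4092 rows matched to a RefSeq lncRNA gene. GENCODE release 29 types LINC00672 and LINC02210-CRHR1 as protein-coding and TUG1 as a long noncoding RNA with a bidirectional promoter. The results that follow therefore concern 3 genes with a coding annotation, and say nothing of the RNAs listed at 0.

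The sequences below show what sets each of the 3 apart: the stretch in front of TUG1, from which MORC2 lies in the other direction; the short reading frame of LINC00672; and, for LINC02210-CRHR1, the stretch in front of its first start and the exon junction that neither parent gene has. The upstream stretches are 250 bases on the plus strand, from RefSeq's promoter table (GRCh38.p14); capitals mark CCAAT boxes (CCAAT, or ATTGG on the other strand) and GC boxes (GGGCGG or CCGCCC). The reading frame and the junction come from GENCODE release 29 (GRCh38); capitals mark the start and stop codons in the former and the CRHR1 side in the latter.
TUG1 upstream, chr22:30969015-30969264: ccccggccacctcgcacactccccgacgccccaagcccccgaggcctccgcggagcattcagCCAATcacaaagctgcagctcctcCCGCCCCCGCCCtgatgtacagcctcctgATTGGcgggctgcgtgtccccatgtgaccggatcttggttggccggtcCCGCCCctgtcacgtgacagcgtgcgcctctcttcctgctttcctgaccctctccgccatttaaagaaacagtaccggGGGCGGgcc
LINC00672 reading frame, chr17:38925694-38925771: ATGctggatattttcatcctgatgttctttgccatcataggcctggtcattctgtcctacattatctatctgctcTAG
LINC02210-CRHR1 upstream, chr17:45620096-45620345: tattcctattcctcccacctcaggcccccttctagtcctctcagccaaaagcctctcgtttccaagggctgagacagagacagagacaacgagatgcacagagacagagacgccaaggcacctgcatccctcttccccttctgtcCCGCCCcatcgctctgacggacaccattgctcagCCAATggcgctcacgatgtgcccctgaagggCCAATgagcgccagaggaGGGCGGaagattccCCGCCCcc
LINC02210-CRHR1 junction, chr17:45630144-45630158 joined to chr17:45807010-45807024: gactcttttctccagGCCCTTCTCCTTCTG
The TUG1 stretch held 2 CCAAT boxes and 4 GC boxes, and the LINC02210-CRHR1 stretch 2 and 3. GENCODE release 29 starts TUG1 at chr22:30969245, so by that model the end of its stretch, with the last GC box, lies within the gene. A second RefSeq start of LINC02210-CRHR1, with the stretch chr17:45621658-45621907, had 0 of either and a GC content of 30%, against 60% at the first start and 66.8% for TUG1. At least 1 CCAAT box occurred in 32% and at least 1 GC box in 42.6% of 35116 such stretches in the table. None of these 3 stretches had a TATA box (TATAAA or TTTATA), which 10.7% of all stretches had. These matches describe letters and are not sites of binding. The reading frame of LINC00672 has 25 codons before its stop and takes up 2.11% of the 3692-base transcript.

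Library totals ran from 11504473 to 16928201 counts, and SDR42E1 itself was lower in each knockout library, at 47.7 ± 1.01 CPM in control and 21.3 ± 1.61 CPM in knockout cells (SD, n = 3 each; CPM scaled to the library size adjusted by the trimmed mean of M values, TMM). The log2 difference of -1.16 passed edgeR's quasi-likelihood test (adjusted p = 2.69e-14), so the RNA was reduced and not gone. In such bulk libraries fewer cells with an RNA and less of it per cell cannot be told apart. The 14 keratinocyte markers summed to 9780 to 10536 CPM in control and 9365 to 9744 CPM in knockout libraries. Summed markers of other cell types ran from 24.2 to 25.2 CPM in control and 19.4 to 23.7 CPM in knockout libraries for melanocytes (TYR at 0), from 4.30 to 6.19 and 1.12 to 2.13 CPM for fibroblasts (PDGFRA and DCN at 0), and from 3.65 to 4.28 and 1.92 to 2.66 CPM for endothelial cells. The 3 leukocyte markers with a count, PTPRC, CD14 and CD68, had higher sums in every knockout library, at 5.18 to 7.80 CPM in control and 8.22 to 8.64 CPM in knockout libraries. Most of that sum was CD68, a lysosomal protein gene, and 1 of the 6 leukocyte markers was tested. The part of these markers in the results below was not tested.

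Of the 3 members, LINC00672 passed the test and was lower in the knockout, while TUG1 and LINC02210-CRHR1 did not pass. Among all 12293 genes tested, 50.4% passed (adjusted p under 0.05, edgeR's quasi-likelihood test with Benjamini-Hochberg adjustment over all genes). Changes of at least 2-fold that also passed made up 7.14% of tested genes, with 5.23% lower. Falls of any size that passed made up 25.8%. LINC00672 was the member in that class. It was also the member whose groups did not overlap, which held for 56.6% of all tested genes. With 3 members, nothing about long noncoding RNAs as a kind follows from these counts.

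**Figure D1:**
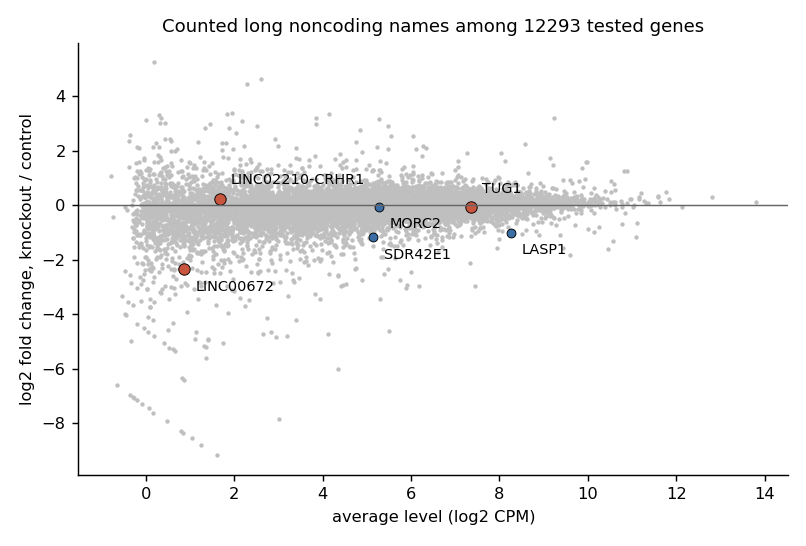
Log2 fold change (knockout over control) against average level (log2 CPM) for the 12293 tested genes in grey, with the 3 members in red and SDR42E1, LASP1 and MORC2 in blue. TUG1 lies close to 0 at a high level, LINC02210-CRHR1 slightly above 0 at a low level, and LINC00672 at -2.34.

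TUG1 was the abundant member and was nearly level between the groups. Its counts were 2240, 3027 and 2092 in control and 1755, 2022 and 2007 in knockout libraries. Scaled to library size these were 161, 175 and 170 CPM in control and 152, 153 and 175 CPM in knockout cells. Knockout replicates 1 and 2 lay below every control library, knockout replicate 3 lay above all of them, and so the groups overlapped. The means were 169 ± 7.03 and 160 ± 13.2 CPM (SD, n = 3 each). In edgeR's quasi-likelihood test TUG1 had a log2 fold change of -0.08 (SE 0.05) and an adjusted p of 0.257. Its 95% interval ran from -0.19 to 0.04, which is a ratio of knockout to control between 0.879 and 1.02. Without knockout replicate 3 the value was -0.14 and passed (adjusted p = 0.0258, edgeR).

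**Figure D2:**
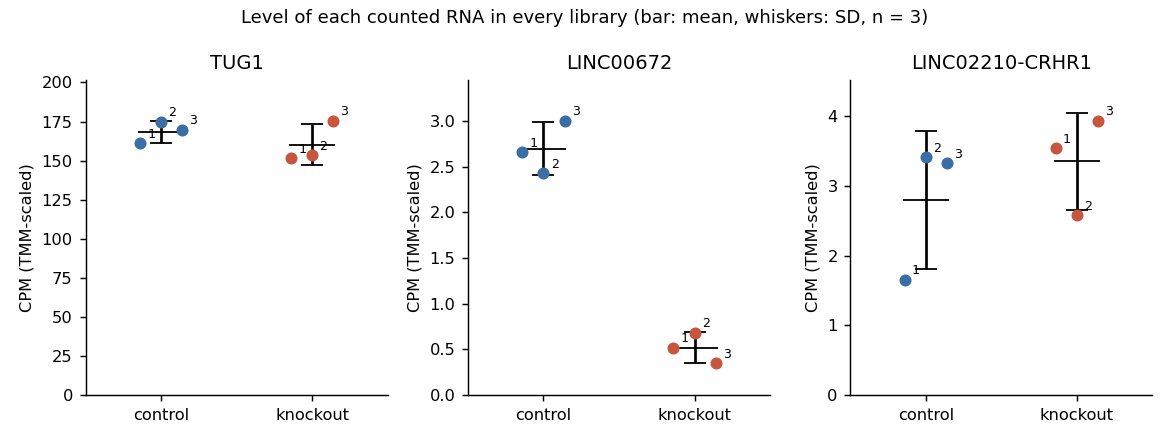
CPM (TMM-scaled, y axis from 0) of TUG1, LINC00672 and LINC02210-CRHR1 in each of the 3 control (blue) and 3 knockout (red) libraries, numbered by replicate; bars are means and whiskers SD. LINC00672 in the knockout stays at or below 0.683 CPM against at least 2.43 CPM in control, while the groups overlap for the other 2.

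The TUG1 gene lies at chr22:30969245-30979395 on the plus strand (GRCh38). MORC2, which encodes a chromatin-compacting ATPase of the MORC family, begins 947 bases away on the minus strand, so the pair is arranged head to head. MORC2 had 40.8, 39.3 and 38.0 CPM in control and 33.96, 39.0 and 40.9 CPM in knockout libraries. As for TUG1, its groups overlapped, and its log2 fold change of -0.05 (SE 0.08) did not pass (adjusted p = 0.626 in edgeR's test). The log2 ratio of TUG1 to MORC2 counts averaged 2.10 ± 0.10 in control and 2.08 ± 0.09 in knockout libraries (SD, n = 3 each). This difference of -0.02 was smaller than the spread between replicates (p = 0.6 in a 2-sided exact permutation test, whose smallest possible p here is 0.1). MORC2-AS1, the antisense RNA named after MORC2, was among the rows listed at 0.

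Further away the neighbours of TUG1 that passed were all higher. Of 15 tested genes within 500 kb, 8 were higher, 0 were lower and 7 did not pass. Their median log2 fold change was 0.19, and 6 of the 15 were below 0. Over all tested genes 24.6% were higher, 50.4% were called either way and the median was -0.00, so the share called was near that of all genes. The largest rise among the neighbours was that of OSBP2, an oxysterol-binding protein gene, from 2.48 ± 0.53 to 6.12 ± 0.96 CPM (log2 1.28, SE 0.23). SMTN, the gene of the cytoskeletal protein smoothelin, rose by 0.70 (SE 0.11), and PES1, a ribosome biogenesis factor, by 0.48 (SE 0.05). TUG1 differed from the median of these neighbours by -0.27, where their SD was 0.46. TUG1 exons overlap those of 2 lincRNA models on the minus strand, AC004542.2 and AC004542.1. They also overlap models typed as misc_RNA on TUG1's own strand (RF01882, RF01883, RF01891 and RF01892), which strand could not separate. The library kit keeps strand, but whether the counting used strand is not known here, so reads of the overlapping models cannot be told apart from those of TUG1.

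**Figure D3:**
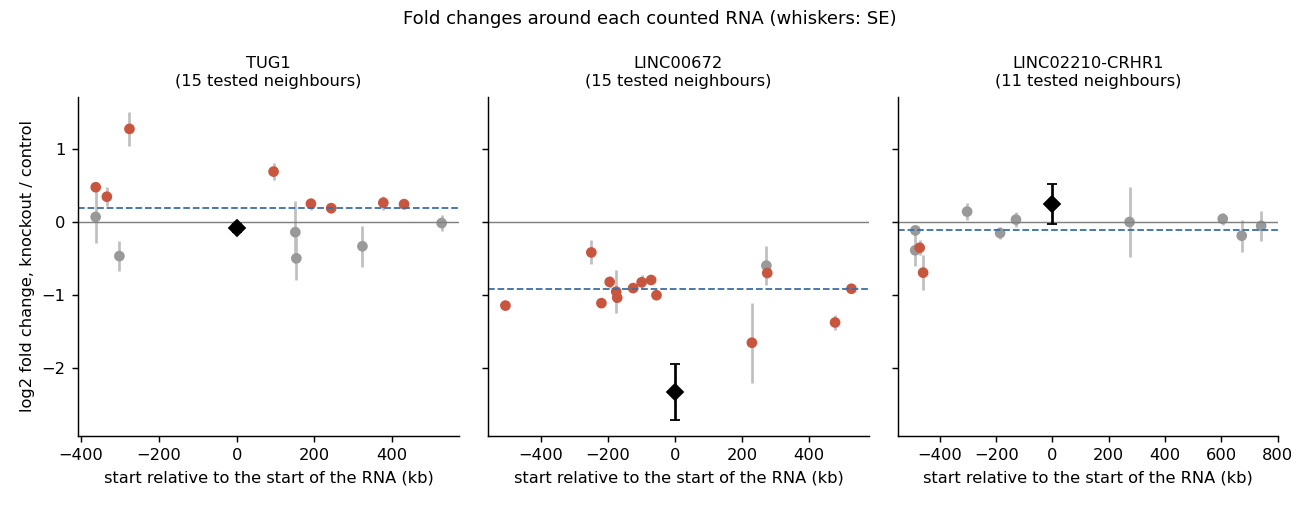
Log2 fold change (knockout over control, whiskers SE) of the tested genes within 500 kb of each member, against the distance between starts in kb; red points passed the test, grey points did not, the black diamond is the member and the dashed line the median of the neighbours. All neighbours of LINC00672 lie below 0, with LINC00672 lowest; those of TUG1 lie mostly above 0 and those of LINC02210-CRHR1 around 0.

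LINC00672 fell about 5.06-fold in the knockout. Its counts were 37, 42 and 37 in control and 6, 9 and 4 in knockout libraries, or 116 against 19 in all. On the scaled level these were 2.66, 2.43 and 3.0 CPM in control and 0.519, 0.683 and 0.350 CPM in knockout cells. Every knockout library was below every control library, with the highest knockout value well under the lowest control value. The means were 2.70 ± 0.29 and 0.517 ± 0.167 CPM (SD, n = 3 each), and edgeR's quasi-likelihood test gave a log2 fold change of -2.34 (SE 0.38, 95% interval -3.12 to -1.56) with an adjusted p of 3.57e-06. The gene qualified only through the control group, with a mean of 2.75 CPM there against 0.507 CPM in the knockout before TMM scaling. A gene this low in one group could reach the level required only by being higher in the other, so its inclusion is no support for the fall. Leaving out any 1 library moved the value between -2.60 and -2.13, and it passed each time. Genes of low level leaned downward in general: of 1633 tested genes under an average log2 CPM of 2, 66.3% were below 0 and the median was -0.28. In that class 20.6% passed and were at least 2-fold lower, against 5.23% of all tested genes, and 6.06% (99 genes) lay below LINC00672.

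The surroundings of LINC00672 were lower too. The gene lies at chr17:38925168-38929384 on the plus strand, in 2 exons, and begins 3397 bases beyond the end of LASP1 on the same strand. None of its exons overlaps an exon of another annotated gene. LASP1 had 394, 409 and 419 CPM in control and 195, 203 and 212 CPM in knockout libraries, so that its groups lay far apart. Its ratio of knockout to control was 0.499 (95% interval 0.466 to 0.534, adjusted p = 2.08e-19 in edgeR's test). Within 500 kb 14 of 15 tested genes were lower, 0 were higher and 1 did not pass, and all 15 were below 0, with a median of -0.91, where 25.8% of all tested genes were lower. These included the ribosomal protein genes RPL23 (-0.79) and RPL19 (-0.70), the proteasome subunit gene PSMB3 (-1.04), the ubiquitin ligase subunit gene FBXL20 (-1.38) and MED1 (-0.91), a subunit of the Mediator complex.

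LINC00672 had the lowest value in this neighbourhood. It lay 1.42 below the neighbours' median on the log2 scale, where their SD was 0.30 and its own SE 0.38. Of the 15 neighbours 0 lay lower, and the nearest was PLXDC1, at -1.66 (SE 0.55). The 95% interval of LINC00672, -3.12 to -1.56, includes that value, so the order of these 2 genes is not settled. LINC00672 qualified through its control level, so its place below the neighbours is no support for a further fall. Relative to LASP1 its log2 ratio of counts was -7.21, -7.40 and -7.13 in control and -8.55, -8.22 and -9.24 in knockout libraries. All 3 knockout ratios were under all 3 control ratios. The means of -7.24 ± 0.14 and -8.67 ± 0.52 (SD, n = 3 each) differed by -1.43 (knockout minus control), more than the spread within either group. A 2-sided exact permutation test gave p = 0.1, the smallest it allows with 3 libraries against 3, so this design cannot place the difference under 0.05. The ratio uses the same LINC00672 counts through which the gene qualified, and LASP1 was paired with it after the values were seen. Neither the ratio nor its test is therefore support for a further fall. The knockout ratios rest on 4 to 9 counts of LINC00672 per library, and their wide spread includes that counting error.

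**Figure D4:**
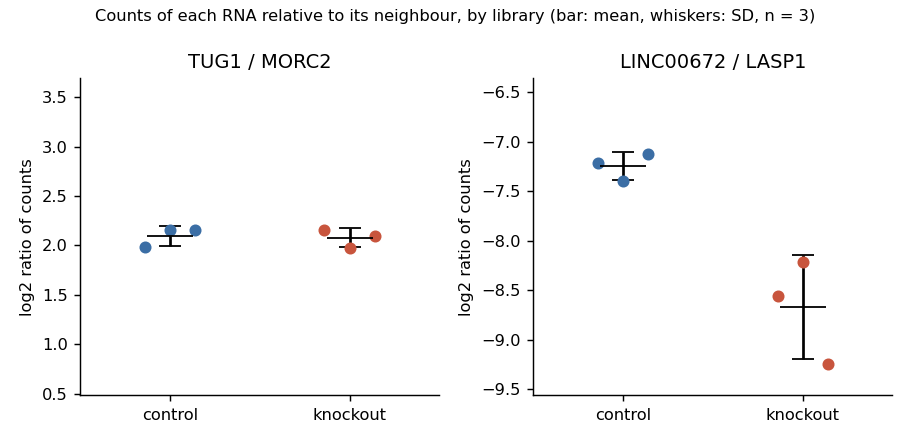
Log2 ratio of counts of TUG1 to MORC2 (left) and of LINC00672 to LASP1 (right) in each library, with means (bars) and SD (whiskers, n = 3); both y axes span the same range. The TUG1 ratios overlap between groups around 2.1, and the LINC00672 ratios are lower in every knockout library, with a difference of -1.43 between the means.

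LINC02210-CRHR1 was present at a low level that varied as much within the groups as between them. Counts were 23, 59 and 41 in control and 41, 34 and 45 in knockout libraries. Scaled, these were 1.65, 3.41 and 3.33 CPM in control and 3.54, 2.58 and 3.93 CPM in knockout cells. Control replicate 1 was lowest of the 6 and knockout replicate 3 highest, and the groups overlapped. The means were 2.80 ± 0.99 and 3.35 ± 0.70 CPM (SD, n = 3 each), and by edgeR's quasi-likelihood test the log2 fold change of 0.25 (SE 0.28) did not pass (adjusted p = 0.481). The 95% interval of -0.32 to 0.81 covers ratios from 0.803 to 1.76, so a small fall and a moderate rise both lie within it. Without control replicate 1 the value was -0.02, and the sign of the difference rests on that library.

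The locus lies at chr17:45620344-45835826 on the plus strand. Its coding transcript has 15 exons and 2695 bases, of which 418 lie in LINC02210 exons, 2277 in CRHR1 exons and 0 in neither. The junction printed above, between exons 3 and 4, joins the last exon outside CRHR1 to the first one within it. The CRHR1 row itself was at 0 in all 6 libraries, although most of the readthrough transcript is shared with it. How reads were divided between the overlapping genes is not known here, so the counts of this row are uncertain and cannot be told apart from reads of CRHR1 or LINC02210. Of 11 tested genes within 500 kb, 0 were higher, 2 were lower and 9 did not pass (median -0.11), where 25.8% of all tested genes were lower and 50.4% were called either way. The 2 that fell were HEXIM1 (-0.35, SE 0.10) and HEXIM2 (-0.69, SE 0.24), which encode inhibitors of the transcription elongation factor P-TEFb. LINC02210-CRHR1 lay above all 11, by 0.36 over their median, a gap close to its own SE.

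With the host genes at 0, the genes of proteins that work on such RNAs could be counted where those RNAs could not. The counts are of RNA and not of protein. Small nucleolar RNAs, which SNHG transcripts carry, act in particles with a few core proteins. The list held these core proteins and also NOLC1 and TCOF1, which are not core proteins. Of its 10 tested genes 8 were higher in the knockout, 0 were lower and 2 did not pass (median 0.28). NOLC1 (log2 0.39) and TCOF1 (0.35) were among those higher. Over all tested genes 24.6% were higher, 25.8% lower and 50.4% changed either way, with a median of -0.00. DKC1, the pseudouridine synthase of these particles, rose from 215 ± 20.4 to 348 ± 3.37 CPM (log2 0.69, SE 0.05), NOP56 by 0.26 and FBL, the methyltransferase, by 0.27. Of 11 microRNA processing genes 5 were higher and 0 lower (median 0.12), a share called near that of all tested genes, with AGO2 at 0.45 and DICER1 at 0.26. Of 10 genes of proteins of nuclear speckles, the bodies where MALAT1 resides, 5 were higher and 0 lower (median 0.15), again close to the 50.4% of all tested genes called. Of 12 genes of paraspeckle proteins, which assemble on NEAT1, 3 were higher and 2 lower (median 0.08), near the all-gene share of 50.4%. Among them SFPQ rose by 0.35 and NUDT21 changed by -0.54. The nuclear exosome list had 4 higher and 2 lower of 17 (median 0.02), Integrator 2 and 3 of 14 (median -0.00), and nonsense-mediated decay, which degrades many SNHG transcripts, 4 and 4 of 14 (median -0.02). The exosome and Integrator counts lie below the 50.4% of all tested genes called, and that of decay near it. In lists of 17 and 14 genes such a gap rests on few genes and is no result about the lists. Of 5 tested neighbours of the imprinted H19 and KCNQ1OT1 genes 3 were higher and 0 lower (median 0.36), where 24.6% of all tested genes were higher and 50.4% were called either way: CD81, PHLDA2 and TSSC4. With 5 genes that count is no result about the list.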

How the data were processed

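RNA was measured in 3 wild-type and 3 SDR42E1-knockout HaCat libraries, prepared as stranded total RNA, per the labels' protocols. Raw counts per gene row were deposited by the authors in 1 table of 6 columns. The submitters' processing notes name GRCh38; aligner, counter, annotation and strand setting: not given in the sources used here. Columns C and Hom were matched to control and knockout samples by name and number. Within groups, library pairs differed beyond counting noise (chi-square over its degrees of freedom 2.65 to 4.49, genes with 20 or more counts in the pair), so each was kept as a replicate.

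The test was that of edgeR 4.0.16 (R 4.3.3): filterByExpr (minimum count 10, minimum total count 15), TMM scaling, and the robust quasi-likelihood F test, two-sided, Benjamini-Hochberg adjusted over 12293 genes, threshold 0.05. Log2 fold changes put knockout over control (prior count 0.125), each SE was derived from the fold change and its F statistic, and 95% intervals use the test's degrees of freedom. Membership used CPM of unscaled totals. The script was tested on simulated data. Positions and exons came from GENCODE release 29 (GRCh38), biotypes and upstream sequences from RefSeq.

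The names, gene lists and markers were chosen with earlier results of these data known, and the 500 kb window and the pairs with MORC2 and LASP1 after the values were seen. One marker of the fixed lists is not reported here by name. Named genes were SDR42E1, the members, the RNAs named in the rule, and otherwise neighbours and list members chosen after their values were seen. Alternatives were DESeq2 1.42.0, limma-voom (limma 3.58.1), RLE and upper-quartile scaling, no filter, a filter of 1 CPM in 3 libraries, a replicate block, leaving out each library, a mean CPM of at least 0.5 or 5 for membership, and members free of exon overlap.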

Additional observations from a re-analysis of the deposited data

How the results depend on the processing

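LINC00672 stayed lower and past the threshold under all 13 alternatives that gave it a value (log2 fold change -2.60 to -2.13), and SDR42E1 likewise (-1.22 to -1.12). LINC00672 qualified through its control level and the alternatives reuse its counts, so its repeated passing is no separate support for the fall. TUG1 stayed below 0 in all 13 and passed only without knockout replicate 3, which took the number of changed members from 1 to 2; over the libraries left out in turn that number was 1 to 2, and the number changed at least 2-fold stayed at 1. LINC02210-CRHR1 passed under none of the 13 and changed sign without control replicate 1 (-0.0152, against at most 0.44 without another library). The causes were not tested. Requiring a mean of at least 5 CPM left TUG1 as the sole member, so 0 members changed and 0 changed at least 2-fold, by construction. At least 0.5 CPM gave the same 3 members, and keeping those with no exon shared with another gene left LINC00672, with 1 changed.

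Deviations from the group means were not shared between libraries of the same number (r = 0.02, -0.09 and -0.01 across genes), and no pairing was assumed. With the replicate block 1 member changed, also at least 2-fold, with LINC00672 at -2.34, TUG1 at -0.08, LINC02210-CRHR1 at 0.27 and SDR42E1 at -1.16. Over all genes 5308 (DESeq2) to 6425 (replicate block) passed, against 6197. Depth limits LINC00672 in the knockout, at 4 to 9 counts per library, and LINC02210-CRHR1, at 23 to 59.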

Other observations

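Some rows that RefSeq calls lncRNA did hold counts under names outside those searched. Of 4600 rows bearing the symbol of a RefSeq lncRNA gene 37 had a count, and 33 of the 37 were readthrough names made of 2 gene symbols joined by a hyphen, as in LINC02210-CRHR1. HNRNPUL2-BSCL2 had the most, with 3516 counts over the 6 libraries, followed by TIMM23B-AGAP6 with 693. A further 15033 rows are named only by an Ensembl identifier, of which 393 had a count.

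The genes after which the -AS and -DT rows are named were mostly counted. Of 1845 such symbols 1280 were tested, with 328 higher and 360 lower in the knockout. That is 53.8% past the threshold, against 50.4% of all tested genes, with a median log2 fold change of -0.03.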
